A study of Homo sapiens with 6 samples.

Results

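Polyamine synthesis and turnover was described here through 10 genes, chosen by symbol as the enzymes that make, acetylate and oxidise polyamines together with the antizymes and the antizyme inhibitor that control them. All 10 were found among the 62700 gene IDs of the count table, and all 10 passed the filter on low counts. RNA was sequenced in 6 libraries of KYSE510 cells, a line established from squamous cell carcinoma of the oesophagus and cultured with serum. For the 3 shRNH1 libraries an shRNA was aimed at a gene labelled RNH1, as a model of induced R-loops (RNA paired with one DNA strand, the other displaced). The 3 shControl libraries came from cells with a control shRNA, whose genotype is given as WT. Both groups thus carried an shRNA and share 1 cell line. The sources used here do not say how many hairpins or clones were used, or how long after knockdown RNA was taken.

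Polyamines are small positively charged molecules that bind nucleic acids and are needed for cell growth. Ornithine decarboxylase makes putrescine, and spermidine and spermine synthases extend it with aminopropyl groups that come from decarboxylated S-adenosylmethionine. Antizymes bind ornithine decarboxylase and send it to the proteasome without ubiquitin, and their own translation needs a ribosomal frameshift that polyamines favour. Spermidine/spermine acetyltransferase marks polyamines for export or oxidation, and polyamine and spermine oxidases break them down with release of hydrogen peroxide. Ornithine decarboxylase is a classic target of the transcription factor MYC and is often raised in epithelial tumours.

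In shRNH1 cells the mRNAs of 2 synthesis enzymes were lower, and those of all 3 enzymes of acetylation and oxidation were higher. ODC1 was at 0.638 times and SRM at 0.658 times the shControl level, whereas SAT1 was at 1.39 times, SMOX at 1.66 times and PAOX at 2.12 times that level. PAOX had few counts, and neither PAOX nor SAT1 passed under every alternative setting tried. The other 2 synthesis genes, AMD1 and SMS, and all 3 genes of the antizyme group, OAZ1, OAZ2 and AZIN1, did not pass the test. Differences were tested on counts with edgeR's quasi-likelihood test, with p-values adjusted by the Benjamini-Hochberg method over 19682 genes at a threshold of 0.05. With 2 of 10 members lower and 3 higher, the background was 12.3% of all genes tested lower and 15.3% higher, or 27.6% in either direction. At an unadjusted p under 0.05 the same 5 members passed, beside 37.3% of all genes. The median log2 fold change of the 10 members was -0.00061, beside 0.016 for all genes tested. Because 10 genes are few, these shares describe the list and are no test of it. In bulk RNA, fewer cells of a kind and less RNA per cell cannot be told apart.

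Library totals were 31394687 to 33421217 counts in shRNH1 and 40225486 to 41103220 in shControl. RNASEH1, the RNase H gene that has RNH1 as an alias, measured 7.16 ± 0.213 CPM in shRNH1 and 31.6 ± 3.73 CPM in shControl (SD, n = 3 each). CPM are counts scaled to library size, with TMM factors. Its log2 fold change of -2.14 passed edgeR's test (adjusted p = 1.61e-13), and that of the ribonuclease inhibitor gene RNH1, -0.19, did not (adjusted p = 0.221). Of 6 squamous markers, KRT5, KRT14 and KRT6A were lower, at 0.397, 0.38 and 0.229 times the shControl level, and 3 did not pass. The sum over all 6 was 541 to 588 CPM in shRNH1 against 553 to 740 CPM in shControl, and most of it was KRT17 (478 ± 27.9 in shRNH1 and 471 ± 85.0 in shControl). None of 5 leukocyte markers reached a testable level (sum 0.455 to 1.31 CPM in shRNH1 and 0.109 to 0.314 in shControl). Of 4 endothelial markers 3 were tested (sum 18.4 to 20.7 CPM in shRNH1 and 19.98 to 21.8 in shControl), and KDR was listed at 0. PECAM1 was higher (1.42 times, adjusted p = 0.0234, edgeR), and CDH5, at 0.834 times, did not pass although its groups were separate. Of 5 fibroblast markers 2 were tested (sum 111 to 133 CPM in shRNH1 and 62.5 to 71.9 in shControl, mostly COL1A1), and COL1A2 was listed at 0. These 2 went opposite ways, COL1A1 higher (1.97 times) and PDGFRB lower (0.532 times, adjusted p = 0.00103, edgeR). The part of these markers in the polyamine results was not tested.

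**Figure D1:**
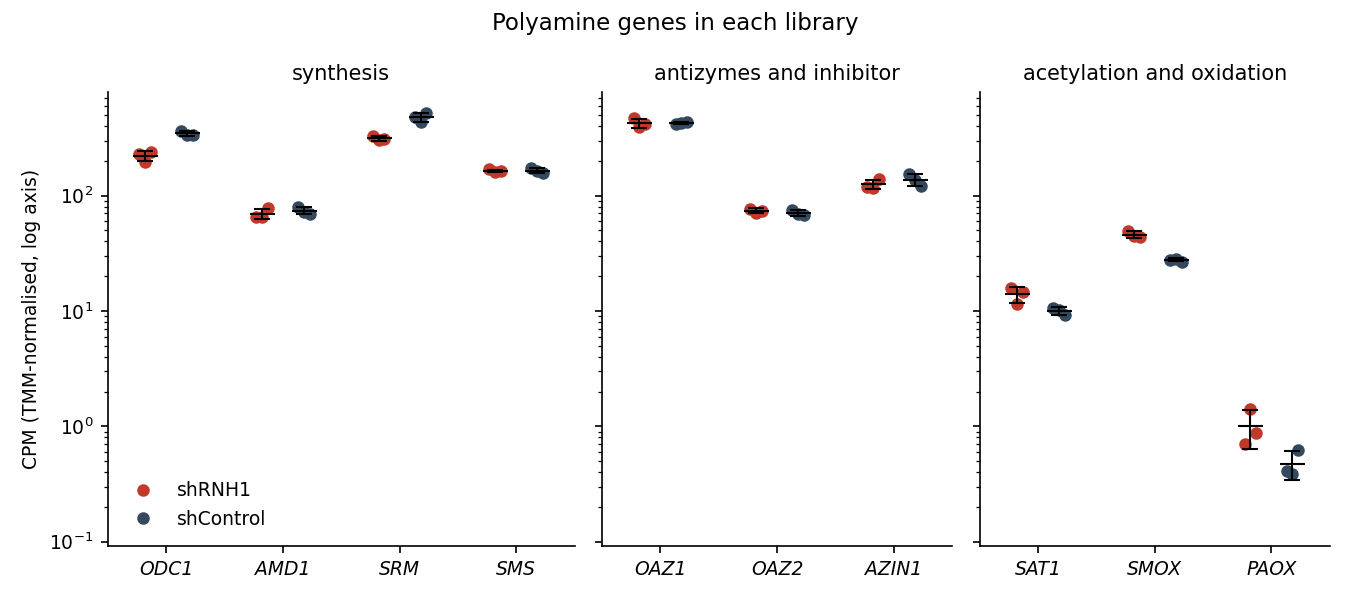
CPM of the 10 polyamine genes in each library, on a log axis, in panels by role. Points are libraries (shRNH1 left, shControl right, n = 3 each), and the dash and bars are the mean and SD. ODC1 and SRM lie lower and SAT1, SMOX and PAOX higher in all 3 shRNH1 libraries, and the groups of the other 5 genes overlap.

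ODC1 (ENSG00000115758; GRCh38 chromosome 2, 10439968 to 10448504, minus strand) encodes ornithine decarboxylase, the first and usually limiting enzyme of the pathway. It measured 229, 197 and 237 CPM in shRNH1 libraries 1 to 3, against 365.5, 336 and 338 CPM in shControl libraries 1 to 3. Every shRNH1 library lay below every shControl library. The log2 fold change was -0.65 (SE 0.0966; 95% interval -0.85 to -0.45), with an adjusted p of 1.03e-05 by edgeR's test. Only 6.10% of all genes tested had a lower log2 fold change. ODC1 ranked 666th by mean level among the genes tested.

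SRM (ENSG00000116649; chromosome 1, 11054584 to 11060024, minus strand) encodes spermidine synthase, which turns putrescine into spermidine. Its level was 332, 303 and 310 CPM in the shRNH1 libraries, against 476, 435 and 524 CPM in the shControl libraries. The groups were again separate, with shControl library 3 the highest of the 6. The log2 fold change of -0.60 (SE 0.0971; 95% interval -0.80 to -0.40) had an adjusted p of 2.91e-05 by edgeR's test. Its processed pseudogenes SRMP2 and SRMP3 had at most 23 and 22 counts in a library. ODC1 and SRM were called lower under all 18 alternative settings tried. An exact two-sided permutation test of CPM gave p = 0.1 for each of the 5 members called, the smallest that 3 libraries against 3 allow.

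ODC1 and SRM each have CACGTG, the E-box hexamer that MYC and its partner MAX can bind, near a RefSeq start site. The stretches that hold it are printed below, and whether it bears on the fall of these genes was not tested. Sequences are from RefSeq (GRCh38.p14), 5′ to 3′ on the gene's strand, kept to bases outside annotated exons, and capitals mark matches to the motifs searched. The ODC1 stretch (chr2:10448013-10448120, minus strand) lies upstream of a downstream start and inside the first intron of the longest ODC1 transcript. The SRM stretch (chr1:11060025-11060268, minus strand) lies upstream of the first exon.
ODC1: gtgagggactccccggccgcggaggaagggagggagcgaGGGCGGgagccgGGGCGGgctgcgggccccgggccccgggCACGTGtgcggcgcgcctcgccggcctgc
SRM: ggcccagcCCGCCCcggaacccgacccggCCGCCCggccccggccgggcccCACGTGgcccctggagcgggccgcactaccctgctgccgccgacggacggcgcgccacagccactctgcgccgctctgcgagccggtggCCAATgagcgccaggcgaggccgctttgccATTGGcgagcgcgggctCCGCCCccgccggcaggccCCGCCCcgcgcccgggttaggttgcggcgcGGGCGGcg

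The E-box lay 29 to 24 bases before that ODC1 start and 199 to 194 bases before the SRM start. The 250 bases before the other ODC1 start (chr2:10448328-10448577, minus strand) held no CACGTG. RefSeq windows of 250 bases before the start were at hand for 7 of the 10 members, with 10 windows in all, because ODC1 and AMD1 have several starts. A pair of the AMD1 windows differ by a shift of 1 base. CACGTG was in 2 of these 10 windows, and in 6.34% of the 35116 windows of all genes. Per member, CACGTG was found for 2 of 7 and GGGCGG for 6 of 7. The share per gene over all genes was not computed. A member with several windows has several chances of a match, so these counts cannot be set against the shares of windows. The GC box GGGCGG, read on both strands like the other motifs, was in 9 of the 10 windows (42.6% of all), and CCAAT in 5 (32% of all). TATAAA, the cyclic AMP element TGACGTCA and the antioxidant element core TGACNNNGC had no match in the members' windows, against 10.7%, 1.65% and 10.9% of all windows. No 2 of the motifs overlapped in the members' windows. The members' windows held 66.4% to 82.4% G and C, above the median of 58% over all windows. A match is a run of letters and not evidence that a factor was bound.

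AMD1 encodes S-adenosylmethionine decarboxylase, the source of the aminopropyl groups. It measured 65.8, 64.8 and 77.5 CPM in shRNH1 against 79.6, 72.4 and 69.7 CPM in shControl, with overlap between the groups. For AMD1 the log2 fold change was -0.09 with a 95% interval of -0.29 to 0.11 (adjusted p = 0.531, edgeR). SMS, which encodes spermine synthase and acts after SRM, measured 169, 162 and 164 CPM in shRNH1 against 174, 165 and 156 CPM in shControl. Its log2 fold change of -0.0015 had a 95% interval of -0.19 to 0.18 (adjusted p = 0.994, edgeR). These intervals do not reach the fall of ODC1 or SRM.

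**Figure D2:**
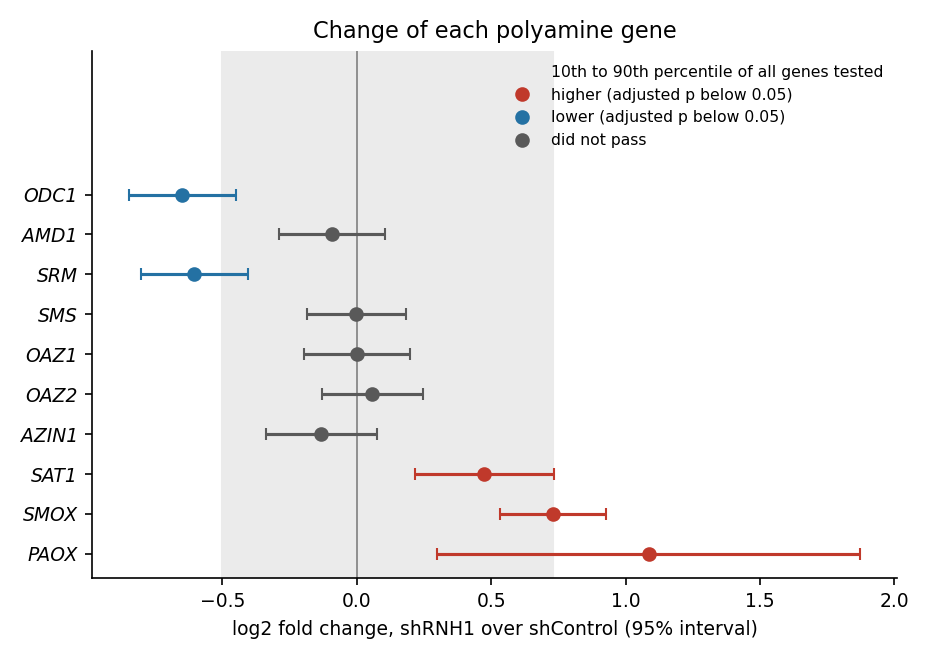
Log2 fold change of each polyamine gene, shRNH1 over shControl, with 95% intervals from the fit (n = 3 each). The grey band spans the 10th to 90th percentile of all genes tested, -0.50 to 0.73. ODC1 and SRM lie below the band, PAOX above it, and SMOX at its upper edge.

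The antizyme group showed no difference past the threshold. OAZ1, the main antizyme, measured 469, 391 and 416 CPM in shRNH1 and 418, 428 and 431 CPM in shControl. Its shRNH1 libraries thus lay on both sides of the shControl libraries, and the log2 fold change was 0.00023 (95% interval -0.20 to 0.20; adjusted p = 0.999, edgeR). OAZ2, a second antizyme, measured 77.2, 70.4 and 74.0 CPM in shRNH1 and 75.6, 69.5 and 67.8 CPM in shControl, with a log2 fold change of 0.06 (95% interval -0.13 to 0.24; adjusted p = 0.694, edgeR).

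AZIN1 encodes the antizyme inhibitor, a relative of ornithine decarboxylase without its activity that binds antizyme in its place. It measured 119, 117 and 139 CPM in shRNH1 and 153, 137 and 121 CPM in shControl. The highest value was in shControl and the lowest in shRNH1, but the groups overlapped, with a log2 fold change of -0.13 (95% interval -0.34 to 0.07; adjusted p = 0.363, edgeR). OAZ1 shares 236 exonic bases with JSRP1 on the other strand (15 to 29 counts per library). AZIN1 shares 344 with MAILR (62 to 110 counts) and OAZ2 554 with ENSG00000265967 (0 counts), both on the other strand. The sources used here do not state whether counting used strand, so reads from those stretches could not be told apart. OAZ1 also shares 220 exonic bases with ENSG00000273734 on its own strand (0 counts), where strand would not tell reads apart.

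SMOX (ENSG00000088826; chromosome 20, 4120980 to 4187747, plus strand) encodes spermine oxidase, which turns spermine back into spermidine and releases hydrogen peroxide. It measured 49.2, 44.8 and 43.6 CPM in shRNH1 against 27.7, 28.4 and 26.8 CPM in shControl, with a wide gap between the groups. The log2 fold change of 0.73 (SE 0.0952; 95% interval 0.53 to 0.93) had an adjusted p of 1.46e-06 by edgeR's test, the smallest of the 10 members. It passed under all 18 alternative settings tried. A log2 fold change below that of SMOX was found for 90.03% of genes tested.

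SAT1 (ENSG00000130066; chromosome X, 23783173 to 23786226, plus strand) encodes spermidine/spermine acetyltransferase, the enzyme that starts polyamine breakdown and export. Its levels were 15.7, 11.5 and 14.7 CPM in shRNH1 against 10.7, 10.2 and 9.20 CPM in shControl. The groups did not overlap, but shRNH1 library 2 lay close to the highest shControl library. A log2 fold change of 0.48 (SE 0.126; 95% interval 0.22 to 0.73) was fitted for SAT1, with an adjusted p of 0.00551 (edgeR). It did not pass without shRNH1 replicate 1 (0.38, adjusted p = 0.0672, edgeR).

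The SAT1 window is the only window of the turnover enzymes that was at hand, and it holds neither CACGTG nor GGGCGG. It therefore allows no comparison of the genes that fell with those that rose. CACGTG was also absent from the windows of AMD1, SMS, OAZ1 and OAZ2, genes that did not pass. Its absence thus does not set SAT1 apart from them. The SAT1 stretch outside exons (chrX:23782957-23783172, plus strand, GRCh38.p14) ends at the start site. Capitals mark a pair of CCAAT matches, 1 on each strand.
SAT1: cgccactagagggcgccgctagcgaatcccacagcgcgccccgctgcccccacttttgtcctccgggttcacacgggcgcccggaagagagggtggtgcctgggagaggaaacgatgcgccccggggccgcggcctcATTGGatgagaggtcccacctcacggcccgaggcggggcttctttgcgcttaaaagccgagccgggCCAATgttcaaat

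PAOX (ENSG00000148832; chromosome 10, 133379234 to 133391694, plus strand) encodes the peroxisomal oxidase of acetylated polyamines. It was the scarcest member, with 24, 50 and 29 counts in shRNH1 against 16, 16 and 23 counts in shControl, or 0.708, 1.42 and 0.879 CPM against 0.411, 0.387 and 0.624 CPM. The groups were separate, with shRNH1 library 2 highest. For PAOX the fitted log2 fold change was 1.09 (SE 0.383; 95% interval 0.30 to 1.87), with an adjusted p of 0.0351 (edgeR). It passed under 11 of the 17 alternatives that gave a value, and not without shRNH1 replicate 2 (0.75, adjusted p = 0.217), shControl replicate 1 (0.99, adjusted p = 0.107) or shControl replicate 2 (0.95, adjusted p = 0.111; all edgeR). PAOX also shares 158 exonic bases with an unnamed gene on its own strand (ENSG00000254536, 18 to 38 counts per library).

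**Figure D3:**
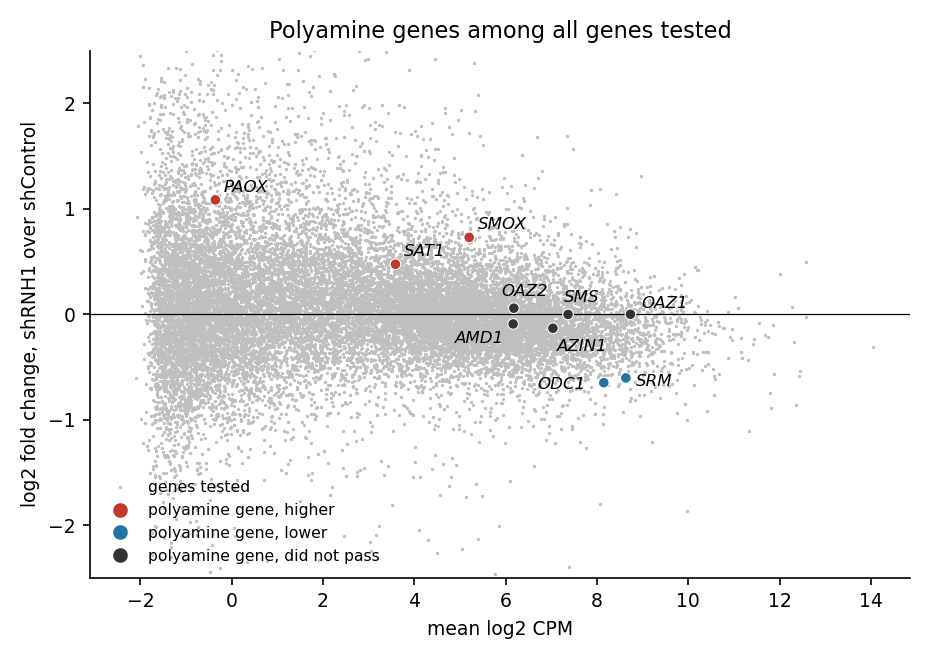
Log2 fold change against mean log2 CPM for the 19682 genes tested (grey; 119 lie outside the vertical axis), with the 10 polyamine genes marked and named. ODC1 and SRM lie at the abundant end, and the 3 turnover genes that rose lie at lower levels.

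The genes that fell and those that rose differed in level. When genes tested were split by mean level into 5 bins of nearly equal size, 7 of the 10 members were in the most abundant bin, among them ODC1 and SRM, and none of the turnover genes was. In that bin 1092 of 3937 genes passed as lower and 484 as higher (edgeR), and the median log2 fold change was -0.097. In the middle bin, which holds SAT1, 379 of 3936 passed as lower and 939 as higher, and the median was 0.11. SMOX lies in the bin between these, where 660 of 3936 passed as lower and 753 as higher with a median of 0.00054, and PAOX in the second lowest bin, where 201 of 3936 passed as lower and 564 as higher with a median of 0.073. With an offset that removed this trend of fold change on level, ODC1 (-0.52), SRM (-0.46), SAT1 (0.39) and SMOX (0.74) kept their direction and still passed. PAOX also kept its direction and passed. CPM did not overlap between groups for 5 of the 10 members, beside 40% of all genes tested. For 2 members shRNH1 lay below (18.6% of all genes) and for 3 it lay above (21.4% of all genes).

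Per kilobase of exon, SRM was the most abundant member, at 166 ± 7.90 CPM per kilobase in shRNH1 and 252 ± 23.4 in shControl (SD, n = 3 each). OAZ1 came next in both groups (124 ± 11.6 in shRNH1 and 124 ± 1.99 in shControl). ODC1 stood at 74.5 ± 7.24 CPM per kilobase in shRNH1 and 117 ± 5.52 in shControl. In shRNH1 the range of ODC1 overlapped that of SMS (76.3 ± 1.63), and in shControl that of OAZ1, with SMS well below (76.4 ± 4.10).

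AZIN1 followed at 19.5 ± 1.84 CPM per kilobase in shRNH1 and 21.3 ± 2.53 in shControl. SMOX, at 15.6 ± 1.01 in shRNH1 and 9.39 ± 0.283 in shControl, lay above AMD1 in shRNH1 (9.87 ± 1.00) and below it in shControl (10.5 ± 0.731), with separate ranges in both groups. OAZ2 (9.63 ± 0.448 in shRNH1 and 9.25 ± 0.535 in shControl) overlapped AMD1 in shRNH1 and SMOX in shControl. SAT1 (5.58 ± 0.877 in shRNH1 and 4.01 ± 0.299 in shControl) and PAOX (0.441 ± 0.164 in shRNH1 and 0.208 ± 0.0573 in shControl) were lowest. With the longest transcript as the length, SAT1 (12.3) passed above OAZ2 (10.4) in shRNH1, and no other place in the order changed in either group.

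Ratios of members within a library do not depend on how libraries are scaled, and 6 of them are plotted as log2 ratios of CPM per kilobase. ODC1 over its antizyme OAZ1 was -0.82, -0.78 and -0.60 in the shRNH1 libraries, against 0.018, -0.13 and -0.14 in the shControl libraries. The mean difference was -0.65, and the groups did not overlap. ODC1 over SAT1, the entry and the exit of the pathway, was 3.62, 3.85 and 3.76 in shRNH1 and 4.85, 4.79 and 4.95 in shControl. That mean difference, -1.12, was the largest of the 8 ratios computed.

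SRM over SMS, the 2 aminopropyl synthases, was 1.16, 1.09 and 1.10 in shRNH1 and 1.64, 1.59 and 1.93 in shControl, a mean difference of -0.60. AMD1 over ODC1, the 2 decarboxylases, was -3.04, -2.84 and -2.86 in shRNH1 and -3.44, -3.46 and -3.52 in shControl, a mean difference of 0.56. Of the 8 ratios, 6 separated the groups, these 4 together with ODC1 over AZIN1 (-0.52) and SAT1 over SMOX (-0.26). SAT1 over SMOX did so narrowly, with -1.33 in shRNH1 library 3 and -1.30 in shControl library 3. Most of the 6 contain ODC1, so they are not independent and partly repeat its change. The share of separate ratios over all gene pairs was not computed, and 40% of single genes tested had separate groups. Each of the 6 had p = 0.1 by the exact two-sided permutation test, the smallest possible, or 0.133 after Benjamini-Hochberg adjustment over the 8. OAZ1 over OAZ2 (mean difference -0.06, p = 0.5, same exact test) and SMOX over PAOX (-0.32, p = 0.6, same exact test) overlapped between groups.

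**Figure D4:**
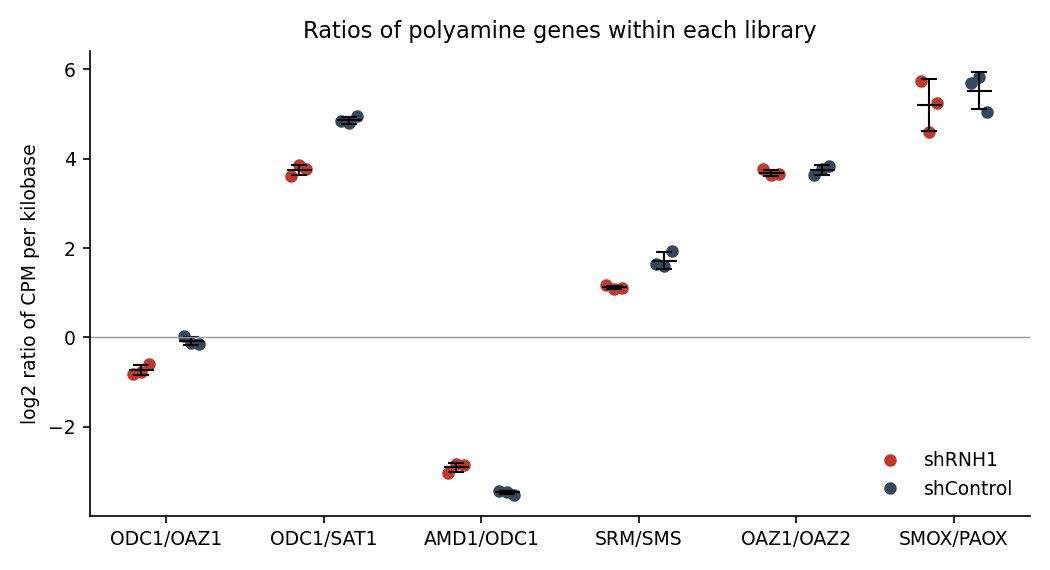
Log2 ratios of CPM per kilobase for 6 pairs of polyamine genes within each library (points; shRNH1 left, shControl right, n = 3 each; dash and bars are mean and SD). ODC1/OAZ1, ODC1/SAT1 and SRM/SMS lie lower and AMD1/ODC1 higher in shRNH1, while OAZ1/OAZ2 and SMOX/PAOX overlap.

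Genes around the pathway were taken from 6 lists of 51 genes, of which 45 could be tested. Of these 45, 9 were higher and 8 lower in shRNH1, with a median log2 fold change of 0.10. That is 37.8% passing in either direction, beside 27.6% of all genes tested (15.3% higher and 12.3% lower). The share of all genes that passed rose with level, from 8.94% in the least abundant bin to 40.0% in the most abundant. These 45 genes were not set against genes of like level, so the shares show no excess. With the offset for expression level 9 were higher and 3 lower, and with library size alone 15 were higher and 6 lower. With library size alone the median of all genes tested was 0.13 in place of 0.016.

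Among 8 tested transport genes, 2 were higher and 2 lower. SLC22A3, an organic cation transporter that accepts polyamines, measured 6.99, 8.91 and 8.52 CPM in shRNH1 and 4.50, 3.97 and 3.88 CPM in shControl (log2 fold change 0.98, SE 0.149, adjusted p = 1.34e-05, edgeR). SLC47A1, an exporter of organic cations (0.29, adjusted p = 0.0448, edgeR), passed under 5 of 18 alternatives, and of those that left out a replicate only without shRNH1 replicate 2. SLC3A2, the heavy chain of amino acid transporters (-0.31), and the cell-surface proteoglycan gene GPC1 (-0.36) were lower but did not pass with the offset for expression level (-0.15 and -0.18). SLC3A2 also did not pass without shRNH1 replicate 3 (-0.30) or shControl replicate 1 (-0.29), and GPC1, whose groups overlapped, not without shRNH1 replicate 1 (-0.34) or 3 (-0.30) or shControl replicate 3 (-0.24). The polyamine transporter genes ATP13A2 and ATP13A3 had log2 fold changes of -0.10 and -0.04 that did not pass.

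Hypusination, which builds a residue from spermidine into the translation factor eIF5A, had 1 of 4 genes lower. That gene was DOHH, the hydroxylase of the last step, with 35.2, 42.6 and 32.1 CPM in shRNH1 and 57.0, 50.4 and 65.6 CPM in shControl. The groups were separate, and its log2 fold change of -0.65 (SE 0.111, adjusted p = 5.88e-05, edgeR) passed under all 18 alternatives. DHPS, which acts before it, had few counted reads (1.68 ± 0.243 CPM in shRNH1 and 1.79 ± 0.577 in shControl). Overlap with other genes was examined only for the members, so whether DHPS reads were lost in counting was not tested. EIF5A itself had a log2 fold change of -0.14 and did not pass (adjusted p = 0.337, edgeR). Its shRNH1 libraries all lay below its shControl libraries, but narrowly, with 2019.8 CPM in shRNH1 library 1 and 2021.6 CPM in shControl library 3. Such separation with shRNH1 below was found for 18.6% of all genes tested.

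Of 10 tested genes of arginine and ornithine supply and use, 2 were higher and 1 lower. ASS1, argininosuccinate synthase, measured 582, 490.6 and 532 CPM in shRNH1 and 291, 299 and 326 CPM in shControl (log2 fold change 0.81, SE 0.0976, adjusted p = 4.22e-07, edgeR). PYCR1, which makes proline, was higher by 0.45 (adjusted p = 0.000637, edgeR). SLC7A1, an arginine importer, was lower by edgeR's test (-0.27, adjusted p = 0.0333) and passed under 10 of 18 alternatives, not without shRNH1 replicate 2 (-0.22) or 3 (-0.27) or shControl replicate 1 (-0.30) or 2 (-0.27). ARG2, which makes ornithine from arginine, had 2.14 ± 0.346 CPM in shRNH1 and 1.59 ± 0.306 CPM in shControl and did not pass (adjusted p = 0.216, edgeR). ASL, argininosuccinate lyase, did not pass either (-0.24, adjusted p = 0.0983, edgeR), although its groups were separate with shRNH1 below. Of the 10 genes, shRNH1 lay wholly above shControl for 4 and wholly below for 3, beside 21.4% and 18.6% of all genes tested.

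Of 9 tested genes of methionine use and salvage, which feed S-adenosylmethionine to AMD1 and recover the by-product of SRM and SMS, 1 was lower. MAT2A, a methionine adenosyltransferase, had a log2 fold change of -0.29 (adjusted p = 0.0253, edgeR) and passed under 11 of 18 alternatives, not without shRNH1 replicate 1 (-0.31) or 2 (-0.22) or shControl replicate 1 (-0.28) or 2 (-0.25). MTAP, which cleaves the by-product methylthioadenosine, did not pass (0.10, adjusted p = 0.509, edgeR).

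In the MYC network list, 5 of 12 genes were higher and 3 lower, or 66.7%, beside 27.6% of all genes tested. In the most abundant bin 40.0% of genes passed, and this list too was not set against genes of like level. MYC measured 728, 806 and 722 CPM in shRNH1 against 978, 942.5 and 1104 CPM in shControl, and the groups were separate. Its log2 fold change was -0.42 (adjusted p = 0.00208, edgeR), and with the offset for expression level it was -0.23 and did not pass (adjusted p = 0.0859, edgeR). MAX, the partner that MYC needs to bind DNA, was lower by a log2 fold change of -0.52, and MLX, a relative of MAX, by -0.53. MXD1 (0.84) and MXI1 (0.66), which pair with MAX and repress, were higher, and these 4 genes passed under all 18 alternatives. The other genes that passed, MXD3 (0.55), MXD4 (0.53) and MYCN (1.42, at 0.785 ± 0.257 CPM in shRNH1 and 0.292 ± 0.135 CPM in shControl), were named after their values were seen. Whether the levels of MYC network genes bear on ODC1 or SRM was not tested.

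Of the minor relatives of the members, OAZ3 and AZIN2 were tested and did not pass (0.54 and 0.45), both with under 1 CPM on average in either group. SATL1 did not reach a testable level.

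**Figure D5:**
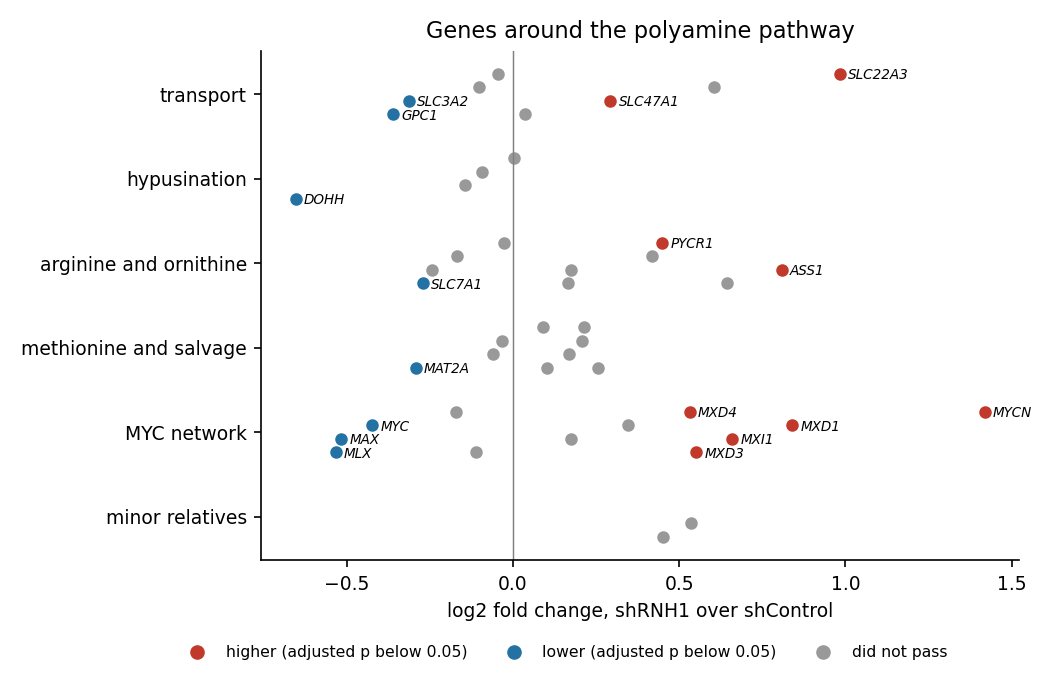
Log2 fold change, shRNH1 over shControl (n = 3 each), of the tested genes of the 6 lists around the polyamine pathway, 1 point per gene, staggered only for legibility. Genes that passed are named. Transport has 2 higher and 2 lower genes, hypusination 1 lower, arginine and ornithine 2 higher and 1 lower, methionine and salvage 1 lower, and the MYC network 5 higher and 3 lower.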

How the data were processed

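The authors deposited whole-number read counts without normalisation, for 62700 Ensembl IDs in 6 libraries. Per the labels' protocols, poly(A) RNA was selected and copied with random primers. HISAT2, StringTie and DESeq2 with GRCh38 are named per the submitters' processing notes. The sources used here do not give the annotation release, read counter or strand setting. The 6 columns were matched to samples by the name in each description, with 0 unmatched.

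Symbols were found for 42343 IDs, and the other 20357 kept their ID as name. Positions and lengths came from GENCODE 29 (GRCh38), which held 58207 of the IDs. Counts were tested with edgeR 4.0.16 in R 4.3.3 (filterByExpr, TMM, quasi-likelihood, no covariate, Benjamini-Hochberg over 19682 genes). Standard errors and intervals came from the quasi-likelihood F statistic. The script was tested on simulated data. Alternatives were DESeq2 1.42.0, limma-voom (limma 3.58.1), scaling by RLE or by library size, a filter of 1 count in total or of 1 CPM in 3 libraries, a replicate block, offsets for GC content and length or for level (MASS 7.3.60.0.1, splines of 5 degrees of freedom), protein-coding genes, thinning, and each replicate left out.

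Named were all members, RNASEH1, RNH1, MYC and up to 4 genes past the threshold per list. The members and lists were chosen with earlier results of these data known. Replicates are biological per the labels, without details of cultures, and p-values cover only the spread among these libraries, which may be technical. No pair within a group agreed within sampling noise (chi-square 5.90 to 18.5 per gene).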

Additional observations from a re-analysis of the deposited data

How the results depend on the processing

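ODC1, SRM, SMOX and RNASEH1 kept their direction and passed under all 18 alternatives, and RNH1, OAZ2 and AZIN1 kept theirs and did not pass. PAOX did not pass with DESeq2 (1.06), with the GC content and length offset (0.98) or with that offset and the replicate block (0.96), and its values ran from 0.75 to 1.33 with a replicate left out. It had no value under the stricter filter, which it did not pass. SAT1 ran from 0.38 to 0.60 with a replicate left out. OAZ1 and SMS, whose values were near 0, changed sign and never passed. OAZ1 was -0.020 with RLE size factors and with DESeq2 (-0.025), -0.0038 with limma-voom, -0.0044 without a filter, -0.0014 with the stricter filter, -0.0038 with the replicate block, -0.081 with the GC content and length offset, -0.085 with that offset and the block, -0.0096 with protein-coding genes and -0.0034 after thinning, and -0.075 to 0.061 with a replicate left out. SMS was 0.11 with library size alone, 0.10 with the expression level offset, 0.0031 after thinning and -0.037 to 0.037 with a replicate left out. AMD1 was 0.020 with library size alone. Genes around the pathway numbered 15 higher with library size alone and 3 lower with the expression level offset, and 5 to 7 lower with a replicate left out. The cause of these shifts was not tested. Of all genes, 4065 were higher and 1433 lower with library size alone, against 3006 and 2418. Same-numbered libraries did not deviate together (r of 0.05, 0.06 and -0.05 across genes). The replicate block left 5094 genes past the threshold, against 5424, and SLC47A1, SLC7A1 and MAT2A did not pass with it. Low counts limit PAOX.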
